A study of Mus musculus with 8 samples.

Results

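The clustered histone genes are the mouse genes that encode the core histones H2A, H2B, H3 and H4 and the linker histone H1 in dense groups on a few chromosomes. They were taken from a table of raw RNA-sequencing counts of adult testis as the rows whose Ensembl identifier carries a symbol beginning with Hist1h, Hist2h, Hist3h or Hist4 in the GENCODE vM21 naming. At least 20 counts over the 8 libraries were required. Of 56748 rows, 70 carried such a symbol and 39 met the count. The 8 libraries were 4 labelled Ssty2 knockout, of genotype Ssty2-/-, and 4 labelled wild type, each from adult testis; the labels give no strain, age in weeks or treatment, and do not say that replicates are separate animals. P-values therefore weigh the difference between the groups against the spread between these libraries, and that spread may be technical. Ssty2 is a spermatid-expressed gene of the mouse Y chromosome, present there in many copies, and the comparison asks which transcripts differ in testis that lacks it. The Ssty2 row held 0 counts in each of the 4 knockout libraries, against 56, 78, 83 and 45 counts in the wild-type libraries.

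Histone mRNAs of the clusters are made mainly in S phase, when new DNA must be packaged. Most of them end in a short RNA hairpin, the histone stem-loop, in place of a poly(A) tail; the stem-loop-binding protein SLBP recognises this hairpin and governs the processing, translation and decay of the mRNA. Mouse testis adds variants of its own: Hist1h1t encodes the linker histone H1t of spermatocytes and early spermatids, and Hist1h2aa and Hist1h2ba encode the testis forms TH2A and TH2B, which replace much of the ordinary H2A and H2B in meiotic cells. In elongating spermatids most histones are in turn exchanged for transition proteins and then protamines. Libraries were prepared from total RNA with a TruSeq RNA kit. Whether poly(A) RNA was selected is not given in the sources used here. The levels below may therefore miss much of the mRNAs without a tail.

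The stem-loop was searched in the GENCODE vM21 transcripts because it sets most of these mRNAs apart from other transcripts. It was searched as a histone consensus of 16 bases, with a stem of 6 bases and a loop of 4. A few positions could vary and no mismatch was allowed elsewhere. Pairing of the stem was not checked, and hairpins of other sequence were not counted. At least 1 transcript of 29 of the 39 members held the consensus (74.4%), against 61 of 141767 transcripts of all genes (0.043%). The 26 bases around it are shown 5′ to 3′, with the stem-loop in capitals, for the H3, H4, H2B and H1 members to which the results return.
Hist1h3a: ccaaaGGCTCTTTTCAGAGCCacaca
Hist1h4a: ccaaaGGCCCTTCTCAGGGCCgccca
Hist1h2bp: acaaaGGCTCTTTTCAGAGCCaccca
Hist1h1c: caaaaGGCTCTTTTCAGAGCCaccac
Hist1h1t: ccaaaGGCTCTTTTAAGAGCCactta
The form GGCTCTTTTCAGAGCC was the usual one and stood in 16 members of H1, H2A, H2B and H3. Hist1h4a was the 1 member with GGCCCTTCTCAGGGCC; 4 other H4 genes held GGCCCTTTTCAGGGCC. Hist1h1t, the testis H1, shared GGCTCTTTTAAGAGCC with 4 members of H2B and H3. The 10 members without a match included Hist1h1a, Hist1h2aa, Hist1h2ba, Hist1h2bc and Hist2h2be. Some annotated transcripts are short, as in Hist1h2ba (384 bases) and Hist1h2aa (390 bases), and may stop before a hairpin. A hairpin that departs from the consensus would also be missed. A missing match therefore does not show that the mRNA lacks a hairpin.

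Promoters were taken from RefSeq (GRCm38.p6), which held 32 of the 39 members. Hist1h3a and Hist1h2bc, which passed the test described below, were not among the 32. The 150 bases before the annotated start are shown for 4 members that passed the test and for the 3 testis variants, so that the genes that moved can be set beside those that did not. Capitals mark 4 motifs searched on both strands: TATAAA (the TATA box), CCAAT (the CCAAT box, which reads ATTGG on the other strand), ATTTGCAT (the octamer bound by POU factors) and TGACGTCA (the cyclic AMP response element, which reads the same on both strands). None of the 4 motifs contains another. The windows lie at chr13:23761250-23761399 on the minus strand (Hist1h4a), and on the plus strand at chr13:23763518-23763667 (Hist1h1a), chr13:21787338-21787487 (Hist1h2bp), chr13:23738657-23738806 (Hist1h1c), chr13:23695661-23695810 (Hist1h1t) and chr13:23934287-23934436 (Hist1h2aa). The Hist1h2ba window lies at chr13:23934157-23934306 on the minus strand.
Hist1h4a: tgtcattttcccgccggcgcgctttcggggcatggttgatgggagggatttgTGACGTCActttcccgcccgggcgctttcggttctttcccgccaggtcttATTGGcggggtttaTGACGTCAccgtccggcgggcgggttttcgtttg
Hist1h1a: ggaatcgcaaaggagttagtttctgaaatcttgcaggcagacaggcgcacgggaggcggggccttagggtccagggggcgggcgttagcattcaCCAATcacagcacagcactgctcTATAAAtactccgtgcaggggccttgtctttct
Hist1h2bp: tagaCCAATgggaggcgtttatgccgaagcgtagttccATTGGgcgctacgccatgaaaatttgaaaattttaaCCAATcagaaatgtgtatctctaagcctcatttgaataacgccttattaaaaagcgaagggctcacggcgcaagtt
Hist1h1c: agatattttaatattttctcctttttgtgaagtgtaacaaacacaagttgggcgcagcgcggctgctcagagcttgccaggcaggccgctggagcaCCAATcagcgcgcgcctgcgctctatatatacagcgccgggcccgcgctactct
Hist1h1t: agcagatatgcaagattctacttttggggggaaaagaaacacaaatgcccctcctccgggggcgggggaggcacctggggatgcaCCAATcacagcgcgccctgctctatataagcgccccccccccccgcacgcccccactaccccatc
Hist1h2ba: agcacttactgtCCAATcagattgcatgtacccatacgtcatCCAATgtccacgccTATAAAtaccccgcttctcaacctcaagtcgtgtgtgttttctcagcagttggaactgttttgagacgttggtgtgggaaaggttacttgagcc
Hist1h2aa: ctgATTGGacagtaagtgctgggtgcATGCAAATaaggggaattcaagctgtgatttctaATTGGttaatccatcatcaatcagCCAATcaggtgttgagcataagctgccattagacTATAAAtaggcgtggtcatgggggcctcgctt
CCAAT was found in 27 of the 32 member promoters (84.4%), against 25.3% of all 27025 promoters in the table, and TATAAA in 16, against 8.08% of all promoters. The octamer was found in 5 (15.6%), against 1.03%, and TGACGTCA in 3 (9.38%), against 1.44%. Hist1h4a held TGACGTCA at 2 places, and Hist1h4h and Hist1h2bj, which did not pass the test, at 1 place each. Hist1h2ba and Hist1h2aa are read in opposite directions from starts so close that their windows overlap. A match describes the sequence only.

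The members fell into 5 types: 5 of H1, 9 of H2A, 11 of H2B, 7 of H3 and 7 of H4. By cluster, 30 lay in Hist1 on chromosome 13, 5 in Hist2 on chromosome 3, 3 in Hist3 on chromosome 11 and 1 in Hist4 on chromosome 6, and 2 (Hist1h2al and Hist3h2bb-ps) are annotated as pseudogenes. They were thinly covered. All 39 together held 14375 counts in the knockout libraries and 12670 in the wild-type libraries, of totals of 18036708 to 22639737 counts per knockout library and 18763650 to 24415587 per wild-type library. This came to 0.0175% ± 0.000692 of all counts in the knockout and 0.0150% ± 0.000548 in the wild type (SD, n = 4 each). The 3 members just inside the count rule held 20 (Hist1h3e), 21 (Hist1h4n) and 21 (Hist1h3c) counts, and those just outside 17 (Hist1h2ae), 17 (Hist1h4j) and 19 (Hist1h3i). Of the 31 rows outside, 8 had no count and 23 had 1 to 19.

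Tests were made on all 21952 genes that passed edgeR's filter on low counts, and 20 of the 39 members were among them. Levels are CPM, counts scaled to a common library size with TMM factors (trimmed mean of M-values), and fold changes are the knockout over the wild type. Members were called at an adjusted p under 0.05 by edgeR's quasi-likelihood test with Benjamini-Hochberg adjustment over all tested genes. Of the 20, 4 rose, 2 fell and 14 did not pass, so that 30.0% were called, against 53.5% of all tested genes (26.2% higher and 27.4% lower). With library totals in place of TMM, all genes split into 17.5% higher and 37.6% lower, their median log2 fold change moving to -0.15. The groups did not overlap in CPM for 5 of the 20 (25.0%), against 46.7% of all tested genes. With DESeq2, which gave all 39 members an adjusted p, 6 of the 39 passed (3 higher, 3 lower), beside 40.4% of all genes (19.8% higher and 20.7% lower), and with the replicate number as a block 4 rose and 2 fell, beside 55.2% of all genes (26.9% higher and 28.3% lower). The median log2 fold change of the 20 was 0.07, beside -0.01 for all tested genes. In whole testis, fewer cells of a type and less RNA per cell cannot be told apart, and this holds for every level given here.

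**Figure D1:**
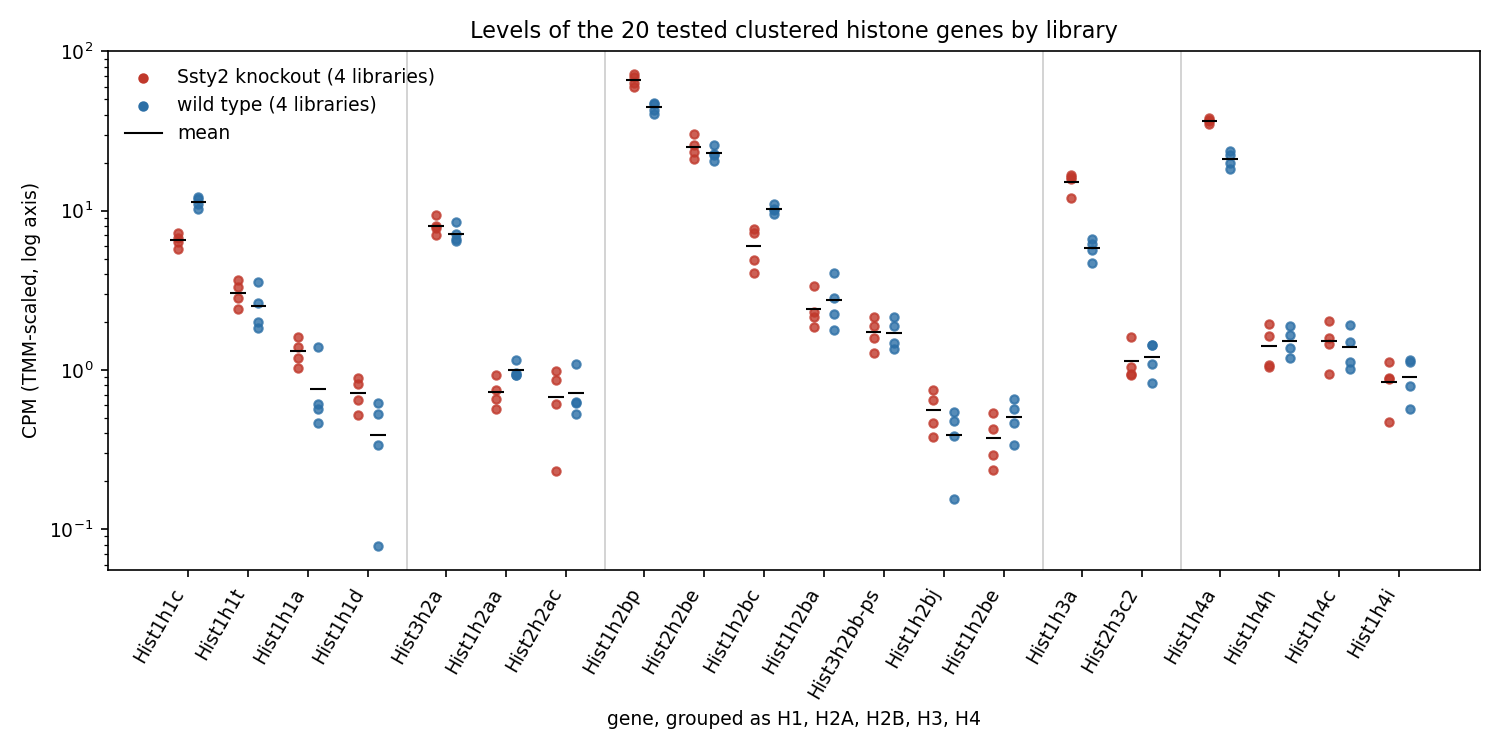
CPM (TMM-scaled, log axis) of each of the 20 tested clustered histone genes, grouped by histone type; points are the 4 Ssty2 knockout and the 4 wild-type libraries and black lines the means. The groups are apart for Hist1h1c, Hist1h2bp, Hist1h2bc, Hist1h3a and Hist1h4a, and the most abundant gene, Hist1h2bp, averaged 65.9 CPM in the knockout and 44.4 CPM in the wild type.

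Among the H3 genes, Hist1h3a, a gene for a replication-dependent H3, rose 2.63-fold and had the largest fold change of the 20. It had 304, 254, 356 and 271 counts in knockout libraries 1 to 4, against 128, 108, 146 and 128 counts in wild-type libraries 1 to 4. Every knockout library stood above every wild-type library, with a mean of 15.2 ± 2.24 CPM in the knockout and 5.79 ± 0.800 CPM in the wild type (SD, n = 4 each). The log2 fold change was 1.40 ± 0.132 (SE; edgeR adjusted p = 3.99e-07). Its transcript shares 58.9% of its 31-base words with other genes, so reads may have been divided between it and its near-copies. Hist1h3h, the member sharing most with it, is 94.2% shared itself and had 27, 24, 0 and 1 counts in the knockout libraries, against 4, 11, 10 and 8 in the wild-type libraries. Those counts were uneven within the knockout and too low for the test. Hist2h3c2, an H3 gene of the Hist2 cluster, averaged 1.13 ± 0.324 CPM in the knockout and 1.20 ± 0.297 CPM in the wild type and did not pass (edgeR adjusted p = 0.822). The other 4 H3 members held 20 to 40 counts each and were not tested.

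Among the H4 genes, Hist1h4a rose 1.74-fold. The mouse H4 genes encode largely the same core histone. Hist1h4a had 654, 777, 782 and 653 counts in knockout libraries 1 to 4, against 461, 419, 510 and 466 in wild-type libraries 1 to 4. The knockout libraries were close together and all above the wild type, at 36.6 ± 1.21 CPM in the knockout and 21.1 ± 2.44 CPM in the wild type (log2 fold change 0.80 ± 0.0826 SE, edgeR adjusted p = 9.96e-07). Its transcript shares 47.9% of its words with other genes. Hist1h4h, Hist1h4c and Hist1h4i had log2 fold changes of -0.11, 0.13 and -0.13, with overlapping groups, and did not pass (edgeR adjusted p = 0.714 to 0.740). Hist2h4 was too thinly counted for the filter and is named after its values were seen. It had 0, 1, 0 and 1 counts in the knockout libraries, against 6, 8, 5 and 8 in the wild-type libraries. The groups did not overlap, and the knockout level, scaled to library size, was 8.40% of that in the wild type (exact 95% interval for counting error, 0.969% to 33.4%). It passed edgeR without the filter (adjusted p = 0.000975), where 29.0% of all genes passed (13.9% higher and 15.1% lower), and DESeq2 (adjusted p = 0.0107), and 2.56% of its words occur in other genes. Hist4h4, likewise named after its values were seen, had 7 counts in all in the knockout and 26 in the wild type, and passed in neither (adjusted p = 0.0657 in edgeR without the filter and 0.130 in DESeq2).

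Among the H2B genes, 1 of 7 tested rose and 1 fell, beside 26.2% higher and 27.4% lower among all tested genes. Hist1h2bp, the most abundant of the 39 members, rose 1.48-fold. It had 1173, 1273, 1515 and 1186 counts in knockout libraries 1 to 4, against 831, 924, 1221 and 977 in wild-type libraries 1 to 4. Once scaled, every knockout library lay above every wild-type library, at 65.9 ± 5.47 CPM in the knockout and 44.4 ± 3.42 CPM in the wild type (log2 fold change 0.57 ± 0.0745 SE, edgeR adjusted p = 1.13e-05). Of its words, 50.6% occur in other genes, and 1 of its 2 annotated transcripts holds the stem-loop. Hist1h2bc, an H2B gene whose annotated transcript holds no stem-loop match, fell. It had 91, 86, 154 and 132 counts in knockout libraries 1 to 4, against 184, 253, 261 and 213 in wild-type libraries 1 to 4. All 4 knockout libraries lay below the wild type, libraries 1 and 2 lowest, at 5.97 ± 1.79 CPM in the knockout and 10.2 ± 0.653 CPM in the wild type. Its log2 fold change was -0.78 ± 0.166 (SE; edgeR adjusted p = 0.000882). Hist2h2be, an H2B variant known from mouse olfactory neurons, was the third most abundant member and averaged 25.1 ± 4.07 CPM in the knockout and 22.9 ± 2.26 CPM in the wild type; its groups overlapped and it did not pass (log2 fold change 0.13 ± 0.106 SE, edgeR adjusted p = 0.303). With library totals in place of TMM its log2 fold change was -0.01.

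The H1 genes encode the linker histones that bind DNA between nucleosomes. Of 4 tested, 1 rose and 1 fell, near the 26.2% higher and 27.4% lower among all tested genes. Hist1h1c, a somatic-type linker histone gene, fell 1.74-fold. It had 118, 144, 122 and 125 counts in knockout libraries 1 to 4, against 199, 252, 304 and 253 in wild-type libraries 1 to 4. Every knockout library was below every wild-type library, at 6.54 ± 0.638 CPM in the knockout and 11.3 ± 0.863 CPM in the wild type (log2 fold change -0.80 ± 0.112 SE, edgeR adjusted p = 2.2e-05). Its transcript is 11.4% shared with other genes. Hist1h1a, another linker histone gene, had 22, 22, 34 and 24 counts in the knockout libraries, against 11, 14, 12 and 29 in the wild-type libraries. Wild-type library 4 stood within the knockout range while the other 3 lay below it, so the groups overlapped. The means were 1.30 ± 0.252 CPM in the knockout and 0.760 ± 0.427 CPM in the wild type (log2 fold change 0.79 ± 0.326 SE, edgeR adjusted p = 0.0499). It passed in 5 of 13 other settings, with adjusted p between 0.00326 and 0.156, and the call ended with library totals, with DESeq2 and without any 1 of 6 libraries. Hist1h1d, at 0.718 ± 0.167 CPM in the knockout and 0.389 ± 0.238 CPM in the wild type, did not pass (edgeR adjusted p = 0.0836).

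Among the H2A genes, none of 3 tested passed, beside 53.5% of all tested genes. Hist3h2a, the most abundant, averaged 8.05 ± 1.02 CPM in the knockout and 7.17 ± 0.921 CPM in the wild type (edgeR adjusted p = 0.281), with overlapping groups. Part of its exon sequence is overlapped by Trim17 on the same strand and by Gm44313 on the opposite strand. Trim17 is also the gene that shares most words with it. Reads of these genes may have been divided or dropped, so the level of Hist3h2a is uncertain. The H2A sum and the Hist3h2a share given below carry the same limit. Hist2h2ac averaged 0.673 ± 0.331 CPM in the knockout and 0.714 ± 0.255 CPM in the wild type (edgeR adjusted p = 0.870). The other 6 H2A members held 23 to 68 counts each and were not tested. One of them, the pseudogene Hist1h2al, is named after its values were seen. It had 9, 16, 10 and 11 counts in the knockout libraries, against 5, 7, 5 and 5 in the wild-type libraries, and 81.9% of its words occur in other genes. Its groups did not overlap, and it passed edgeR without the filter (adjusted p = 0.0325) but not DESeq2 (adjusted p = 0.0564).

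None of the 3 testis variants passed the test, beside 53.5% of all tested genes that did. Hist1h1t, the testis linker histone gene, had 68, 60, 51 and 57 counts in the knockout libraries, against 39, 42, 68 and 74 in the wild-type libraries. The groups overlapped, at 3.05 ± 0.545 CPM in the knockout and 2.51 ± 0.780 CPM in the wild type (log2 fold change 0.27 ± 0.214 SE, edgeR adjusted p = 0.297). Hist1h2ba, the gene of TH2B, had 40, 72, 49 and 32 counts in the knockout libraries, against 55, 51, 46 and 85 in the wild-type libraries. Here the highest library was wild-type 4, and the groups overlapped (2.43 ± 0.663 CPM in the knockout and 2.74 ± 0.997 CPM in the wild type; log2 fold change -0.15 ± 0.249 SE, edgeR adjusted p = 0.638). Hist1h2aa, the gene of TH2A, had 14, 14, 12 and 16 counts in the knockout libraries, against 18, 22, 24 and 24 in the wild-type libraries. Knockout library 4 reached the lower end of the wild-type range, and the gene did not pass (0.727 ± 0.156 CPM in the knockout and 0.994 ± 0.108 CPM in the wild type; log2 fold change -0.46 ± 0.265 SE, edgeR adjusted p = 0.153). Gm44344 overlaps Hist1h2aa on the opposite strand; the strand setting of the counting is not given in the sources used here, so reads of the pair cannot be told apart. At this depth SEs of 0.214 to 0.265 on the log2 scale left moderate differences undetectable.

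**Figure D2:**
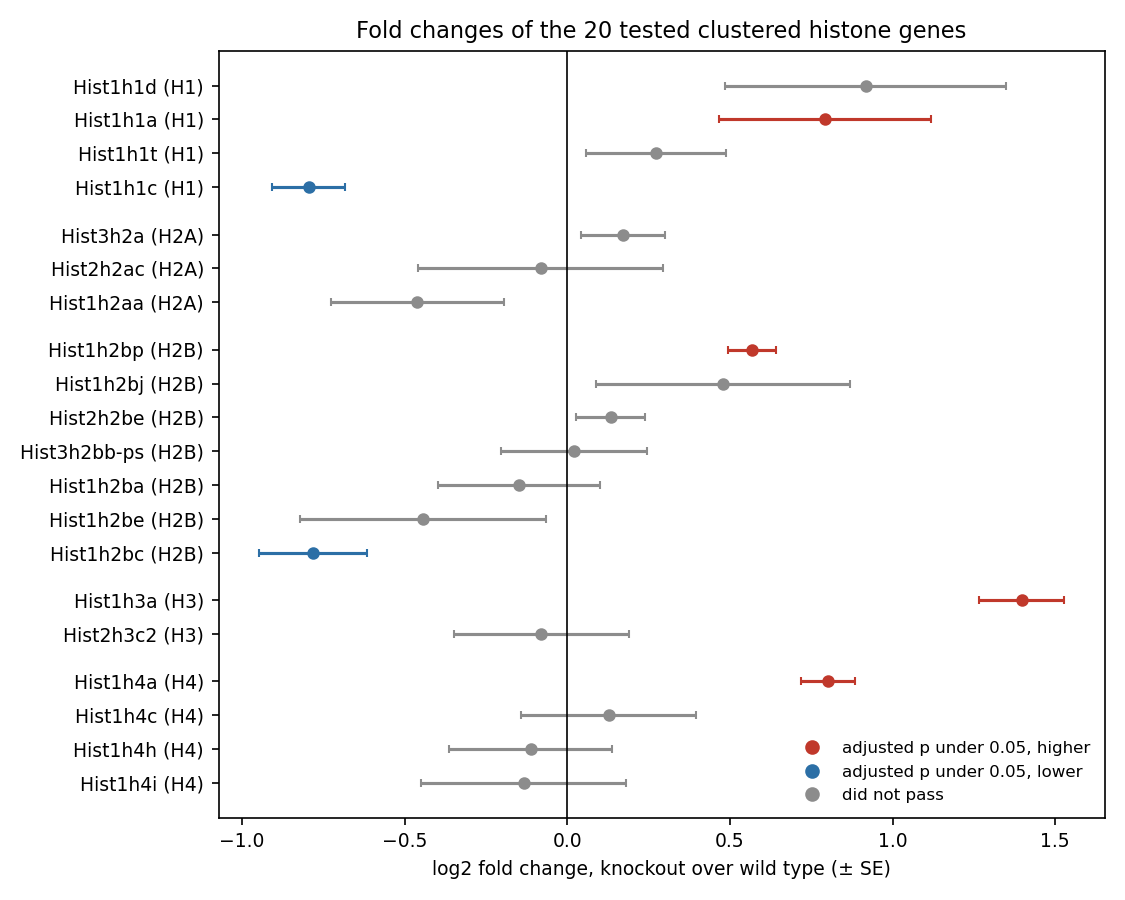
Log2 fold change, knockout over wild type, of the 20 tested members with its standard error, grouped by histone type; colour marks the direction of those that passed an adjusted p under 0.05. Hist1h3a lies farthest right at 1.40, Hist1h1c and Hist1h2bc lie farthest left at -0.80 and -0.78, and the testis variants Hist1h1t, Hist1h2aa and Hist1h2ba are grey.

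Per kilobase of exon, Hist1h2bp had the highest level, at 93.3 CPM per kb in the knockout and 62.9 in the wild type. Hist1h4a followed at 68.0 CPM per kb in the knockout and 39.1 in the wild type, then Hist1h3a at 28.5 in the knockout and 10.8 in the wild type. Hist2h2be, with a long annotated transcript, came to 9.59 CPM per kb in the knockout and 8.74 in the wild type. The testis variants were lower in this measure. Hist1h2ba was at 6.32 CPM per kb in the knockout and 7.12 in the wild type. Hist1h1t was at 3.34 in the knockout and 2.76 in the wild type, and Hist1h2aa at 1.86 in the knockout and 2.55 in the wild type. The divisor is the annotated exon length, which is only 384 bases for Hist1h2ba and 390 for Hist1h2aa. As poly(A) selection is not given, this order may not be the order of the genes by all their mRNA.

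CPM was also summed within each type, because a sum is less affected by how reads were divided among near-copies; the testis variants were summed apart and no test was made on sums. The H3 sum was 2.14 times as high in the knockout, at 17.5 ± 2.27 CPM, against 8.18 ± 1.06 CPM in the wild type (SD, n = 4 each). The H4 sum was 40.6 ± 1.19 CPM in the knockout and 25.6 ± 2.74 CPM in the wild type, a ratio of 1.58. In both types every knockout library was above every wild-type library. The H4 sum rests on Hist1h4a, as Hist1h4h, Hist1h4c and Hist1h4i had log2 fold changes of -0.11, 0.13 and -0.13. The H3 sum rests on Hist1h3a: among members with under 50% of their words in other genes Hist1h3d alone is left, with 9 counts in the knockout and 20 in the wild type, and the log2 ratio is -0.95. Hist1h3c, Hist1h3e and Hist1h3f, also untested, held 10, 7 and 12 counts in the knockout and 11, 13 and 28 in the wild type. The H2B sum was 100.4 ± 5.08 CPM in the knockout and 81.2 ± 3.32 CPM in the wild type (ratio 1.24), and again the groups were apart. When H2B members with 50% or more of their words in other genes were left out, which removes Hist1h2bp, the log2 ratio of the H2B sum was -0.10, against 0.31 with all. The H1 sum ran the other way, at 8.78 ± 0.671 CPM in the knockout and 12.7 ± 1.03 CPM in the wild type (ratio 0.692), with every knockout library below the wild type. It rests on Hist1h1c, as Hist1h1a and Hist1h1d had positive log2 fold changes (0.79 and 0.92). The H2A sums overlapped, at 10.6 ± 0.955 CPM in the knockout and 8.88 ± 1.01 CPM in the wild type. The testis variants summed to 6.20 ± 0.675 CPM in the knockout and 6.24 ± 1.73 CPM in the wild type, overlapping, with wild-type library 4 the highest at 8.80 CPM. Over all 39 members the sum was 184.1 ± 6.28 CPM in the knockout and 142.8 ± 5.91 CPM in the wild type, a ratio of 1.29. Most of it came from the 5 largest members, Hist1h2bp, Hist1h4a, Hist2h2be, Hist1h3a and Hist1h1c. They held 81.1% ± 1.01 of it in the knockout and 73.9% ± 1.01 in the wild type. The sum therefore does not describe the members at large.

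**Figure D3:**
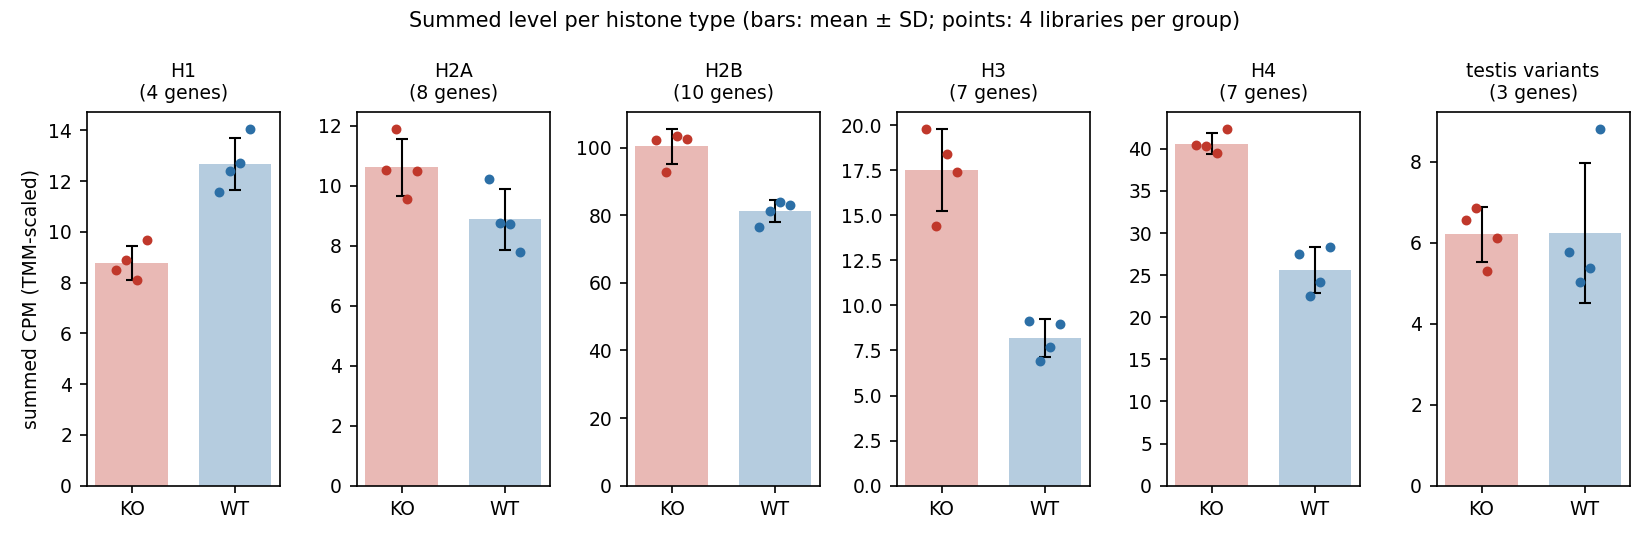
Summed CPM (TMM-scaled) per histone type, with the 3 testis variants apart; bars are means, whiskers 1 SD, points the 4 knockout (KO, left) and 4 wild-type (WT, right) libraries, and each panel has its own axis from 0. The H2B, H3 and H4 sums are higher in every knockout library, the H1 sum is lower in each (8.78 against 12.7 CPM on average), and the H2A and testis variant sums overlap.

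Each type, with its testis variant now included, had 1 gene with most of its CPM. In H3, H4 and H2B that share was larger in the knockout. Hist1h3a held 86.9% ± 4.87 of the H3 CPM in the knockout and 70.7% ± 2.57 in the wild type (SD, n = 4 each). Hist1h4a held 90.2% ± 2.79 of the H4 CPM in the knockout and 82.2% ± 2.94 in the wild type, and Hist1h2bp held 64.0% ± 3.42 of the H2B CPM in the knockout and 52.9% ± 3.09 in the wild type. In H1, Hist1h1c held 55.3% ± 2.35 in the knockout and 74.8% ± 3.86 in the wild type. Hist1h1t held 25.7% ± 3.12 of the H1 CPM in the knockout and 16.3% ± 3.16 in the wild type. For each of these 5 shares the groups did not overlap. Hist1h3a, Hist1h4a, Hist1h2bp and Hist1h1c had passed the test, so their shares restate those changes and are not separate results. The CPM of Hist1h1t itself overlapped between the groups, and its share also depends on the level of Hist1h1c. In H2A, Hist3h2a held 70.8% ± 3.05 in the knockout and 72.5% ± 2.92 in the wild type, with overlapping groups. Apart from the 20 tested genes, the 19 remaining members held 20 to 85 counts each and together 328 counts in the knockout and 373 in the wild type.

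Members with and without a stem-loop match in their annotated transcripts were set side by side without a test. Of 14 tested members with a stem-loop, 3 rose (Hist1h2bp, Hist1h3a and Hist1h4a) and 1 fell (Hist1h1c), beside 26.2% higher and 27.4% lower among all tested genes. Of 6 tested members without a match, Hist1h1a rose and Hist1h2bc fell. The 29 stem-loop members summed to 143.9, 136.2, 148.9 and 150.9 CPM in the knockout libraries, against 103.6, 93.0, 104.8 and 109.3 CPM in the wild-type libraries. All knockout libraries were above all wild-type libraries in that sum. It includes Hist1h2bp, Hist1h4a and Hist1h3a, which averaged 65.9, 36.6 and 15.2 CPM in the knockout. In the wild type these genes averaged 44.4, 21.1 and 5.79 CPM. The difference in the sum rests on them and does not describe the other stem-loop members. The 10 members without a match summed to 44.2, 38.9, 35.6 and 37.8 CPM in the knockout libraries. Their sums in the wild-type libraries were 37.2, 43.8, 38.0 and 41.5 CPM, and the groups overlapped. As some of their annotated transcripts may stop before a hairpin, the split follows the annotation and the consensus searched. It may not separate 2 kinds of mRNA.

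On chromosome 13 the annotation places 55 Hist1 genes, counted or not, with 146 other genes between them. The pseudogene Hist1h2al, which comes after them on the chromosome, was left out of this stretch. Of the Hist1 genes 15 were tested, of which 4 rose and 2 fell, and their median log2 fold change was 0.13. Of the other genes 19 were tested, of which 7 rose and 1 fell, with a median of 0.16, beside 26.2% higher and 27.4% lower among all tested genes. The neighbours that follow are named after their values were seen. Hist1h4a, Hist1h3a and Hist1h1a, which rose, stand next to each other in gene order. They are followed by Trim38, a gene of the tripartite motif family, at 6.76, 7.61, 6.86 and 6.99 CPM in the knockout libraries, against 3.35, 2.36, 3.27 and 3.13 CPM in the wild-type libraries. Trim38 rose without overlap (log2 fold change 1.22, edgeR adjusted p = 3.28e-06). Slc17a2, a solute carrier gene beyond it, had 1.29, 0.798, 0.757 and 1.05 CPM in the knockout libraries, against 0.515, 0.612, 0.506 and 0.337 CPM in the wild-type libraries, and also rose (log2 fold change 0.96, edgeR adjusted p = 0.0148). Hfe, the haemochromatosis gene, lies near Hist1h1c, which fell, and had a log2 fold change of -0.47 (edgeR adjusted p = 0.000807). Hist1h2bp stands far from these, toward the other end of the cluster. The other 5 non-histone genes that rose, Gm11280, Prss16, Pom121l2, 4930557F10Rik and 4930586N03Rik, lie between it and the group above, with log2 fold changes of 0.26 to 1.97.

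**Figure D4:**
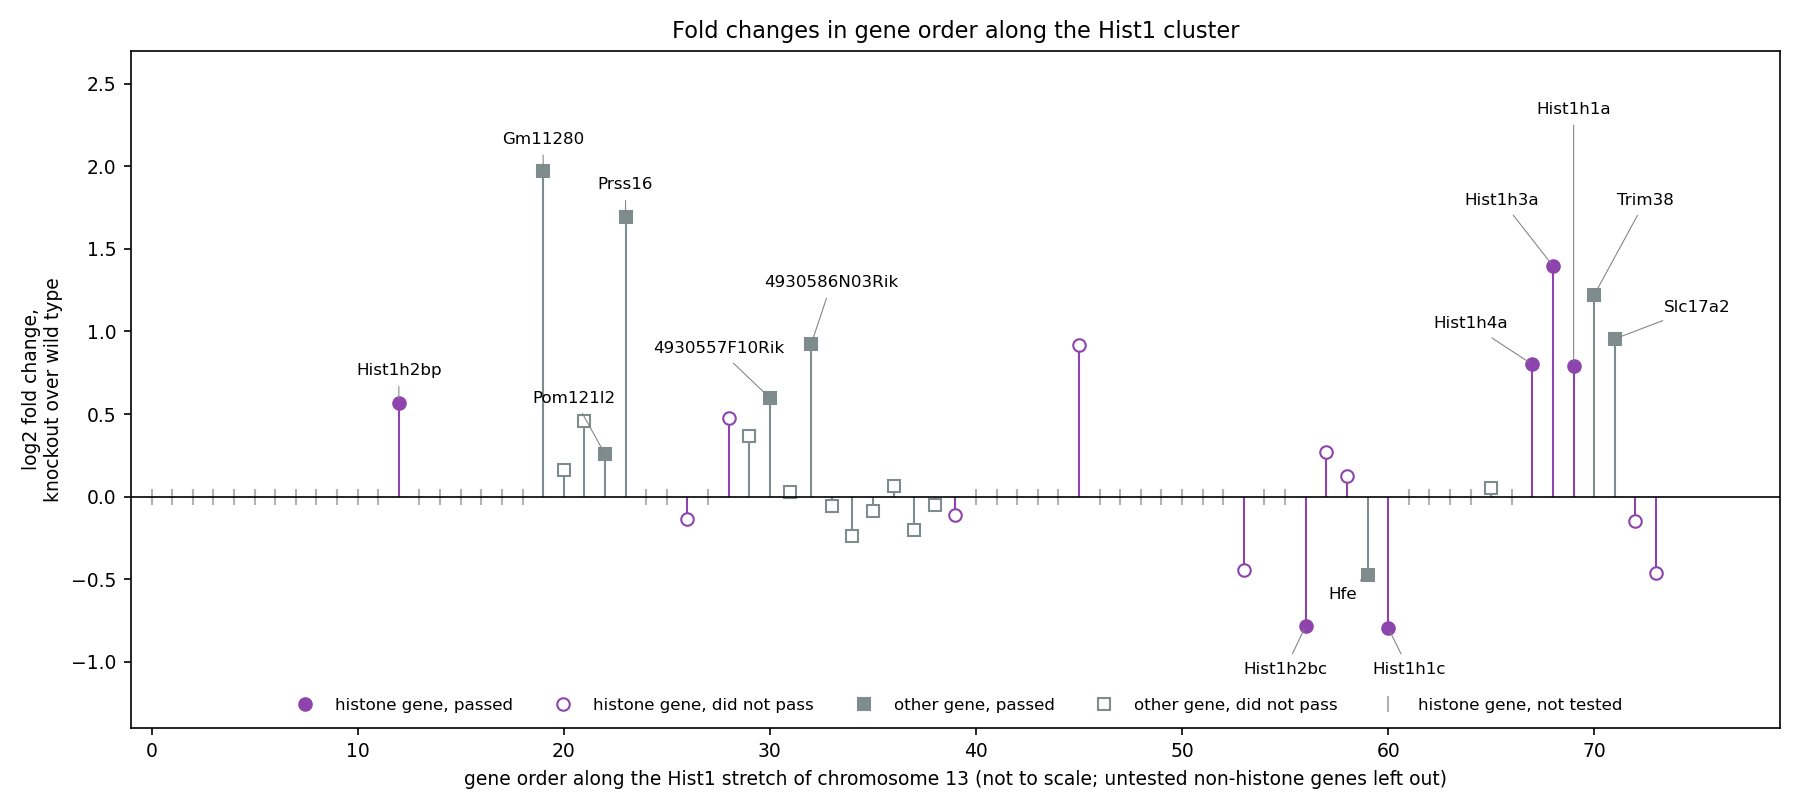
Log2 fold change, knockout over wild type, of tested genes in gene order along the Hist1 stretch of chromosome 13 (order only, not to scale); circles are histone genes, squares other genes, filled symbols passed an adjusted p under 0.05 and ticks are histone genes that were not tested. Hist1h4a, Hist1h3a, Hist1h1a, Trim38 and Slc17a2 form a run of higher values (0.79 to 1.40), while Hist1h2bc, Hfe and Hist1h1c lie below 0. Hist1h1t and Hist1h4c, between Hist1h2bc and Hfe, lie above 0 (0.27 and 0.13) and did not pass.

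The genes that act on histone mRNAs and histones were examined as lists. Of 20 genes of histone mRNA synthesis, processing and decay, all tested, 4 rose and 6 fell, with a median log2 fold change of -0.10; among all tested genes 26.2% rose and 27.4% fell, 53.5% together, which is near the list's 10 of 20. With library totals in place of TMM 1 rose and 13 fell, beside 17.5% higher and 37.6% lower among all genes. Cstf2, a cleavage factor subunit, rose to 111 ± 3.31 CPM in the knockout, against 64.9 ± 1.80 CPM in the wild type (log2 fold change 0.78 ± 0.0537 SE, edgeR adjusted p = 1.42e-08). Casp8ap2, also called FLASH, needed for histone mRNA processing, fell (log2 fold change -0.56, edgeR adjusted p = 0.000164), as did Lsm1, of the cytoplasmic decay machinery (-0.38, edgeR adjusted p = 0.000928). Slbp, named because its protein binds the stem-loop, averaged 94.7 ± 4.63 CPM in the knockout and 103 ± 7.92 CPM in the wild type and did not pass (edgeR adjusted p = 0.104). The summed CPM of the list was nevertheless higher in every knockout library, at 1760 to 1850 CPM in the knockout and 1660 to 1730 CPM in the wild type, opposite in sign to the list's median. Of 20 histone chaperones and importers 5 rose and 11 fell (median -0.17). Asf1b, an H3-H4 chaperone, and Anp32e, a chaperone of H2A.Z, fell (log2 fold changes -0.53 and -0.68), and Ipo4, which imports H3 and H4, rose (0.34). Of 13 tested histone variants encoded outside the clusters 3 rose and 9 fell (median -0.23). The spermatid linker histones H1fnt and Hils1 rose (log2 fold changes 0.54 and 0.41) and the somatic H1f0 fell (-0.78; edgeR adjusted p of the 3 between 3.00e-06 and 3.91e-05). In both these lists too the summed CPM ran against the median and was higher in every knockout library: 2750 to 2940 CPM in the knockout and 2590 to 2670 CPM in the wild type for chaperones, and 2490 to 2640 CPM in the knockout and 2270 to 2420 CPM in the wild type for variants.

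DNA replication genes and germ cell markers moved in the same libraries. The counts that follow stand beside 26.2% higher and 27.4% lower among all tested genes, 53.5% together. Of 26 genes of DNA replication and S phase none rose and 15 fell (median log2 fold change -0.34), among them the replicative helicase subunits Mcm2 (-0.92), Mcm3 (-0.77) and Mcm5 (-0.62). Their summed level was 784 to 801 CPM in the knockout and 907 to 965 CPM in the wild type. Of 12 genes of the exchange of histones for protamines 9 rose and none fell (median 0.40), with Prm1 at 0.65 and Prm2 at 0.70. Of 14 spermatogonial markers 1 rose and 11 fell (median -0.73), and their sum was 180 to 188 CPM in the knockout and 268 to 300 CPM in the wild type. Of 14 spermatocyte markers 2 rose and 6 fell (median -0.14; 1 and 9 with library totals), and their sums overlapped at 1920 to 2170 CPM in the knockout and 2060 to 2400 CPM in the wild type. All 14 round spermatid markers rose (median 0.50), with sums of 3980 to 4100 CPM summed in the knockout and 2580 to 2890 CPM in the wild type. All 12 elongating spermatid markers rose (median 0.57), with sums of 23200 to 26500 CPM in the knockout and 15000 to 18300 CPM in the wild type. Hist1h3a, Hist1h4a and Hist1h2bp thus rose, and Hist1h1c and Hist1h2bc fell, in libraries whose marker levels differed; the part of the markers in these results was not tested.

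Markers of somatic cells were mostly lower. Among all tested genes 26.2% were higher and 27.4% lower. Of 14 Sertoli cell markers none rose and 13 fell (median log2 fold change -0.61), with sums of 1580 to 1810 CPM in the knockout and 2330 to 2680 CPM in the wild type. All 10 Leydig cell markers fell (median -0.98), with sums of 1010 to 1120 CPM in the knockout and 1910 to 2200 CPM in the wild type. Of 8 peritubular myoid markers 1 rose and 6 fell (median -0.54), with overlapping sums of 352 to 392 CPM in the knockout and 337 to 375 CPM in the wild type. Of 13 endothelial and blood cell markers none rose and 5 fell (median -0.35), with sums of 56.6 to 76.2 CPM in the knockout and 82.2 to 94.6 CPM in the wild type. No gene of any list was at 0 counts.

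**Figure D5:**
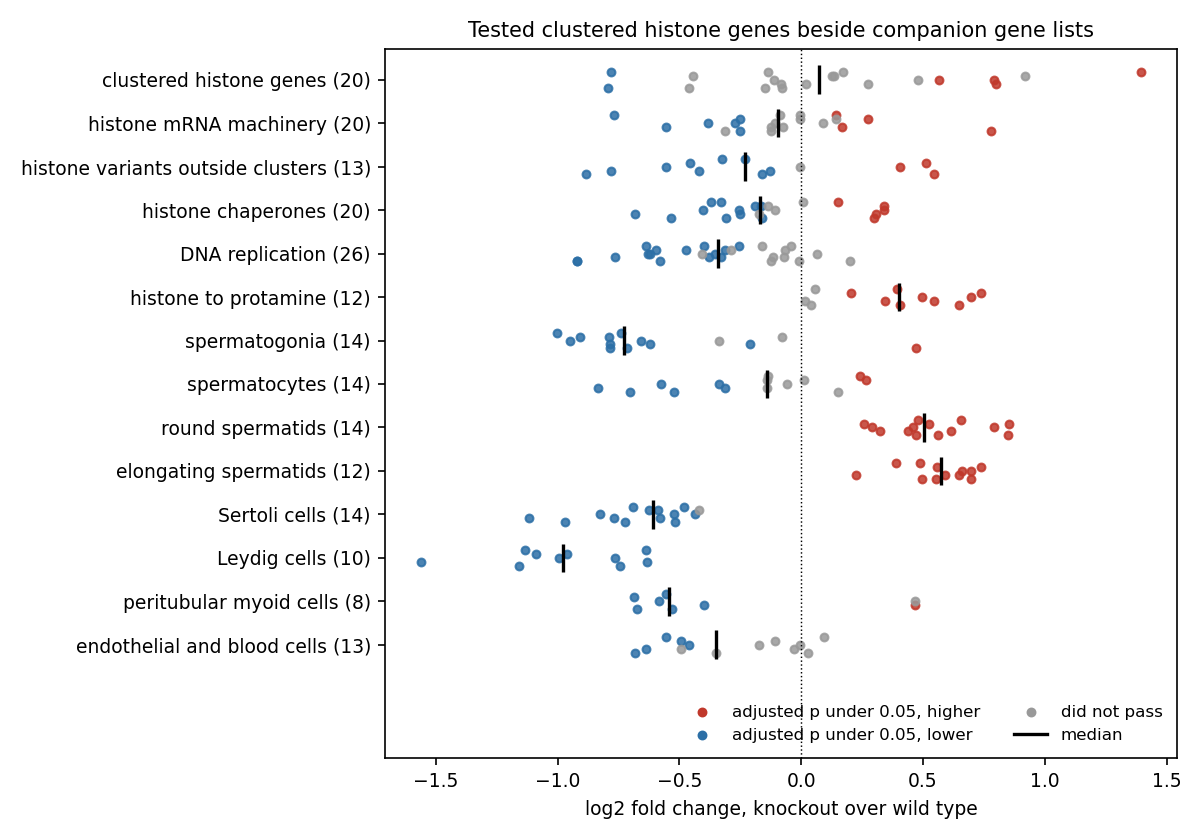
Log2 fold change, knockout over wild type, of the 20 tested clustered histone genes (top row) beside the genes of 13 companion lists, with the number tested in brackets; each point is a gene, colour marks those that passed an adjusted p under 0.05 and black bars are medians. The histone genes have a median of 0.07 and spread to both sides, while all round and elongating spermatid markers are higher and the Leydig cell markers are all lower.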

How the data were processed

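The authors deposited raw counts per Ensembl gene, in 1 column for each of 8 libraries (4 Ssty2 knockout, 4 wild type) and with no normalization. The submitters' processing notes list build mm39 and the tools featureCounts, STAR, Trimmomatic, FastQC and DESeq2; their versions and their settings for multi-mapping and strand are not given here. Symbols, chromosomes, gene order and transcripts came from GENCODE vM21 (GRCm38), and no coordinates were mixed between builds. Reads of near-identical copies may have been split or dropped, and overlapping genes cannot be told apart.

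The counts were tested with edgeR 4.0.16 (R 4.3.3): filterByExpr (minimum count 10, minimum total 15), TMM scaling, the quasi-likelihood test with genotype as the only term, and Benjamini-Hochberg adjustment over 21952 genes. SE is the log2 fold change divided by the root of the test's F value. Sharing is the percentage of 31-base words found in another gene. The procedure was tested on simulated data. In a single library 3 counts were worth 0.117 to 0.175 CPM; intervals cover counting error only. DESeq2 1.42.0, other scalings, no filter, a replicate block and leaving out each library were tried as alternatives.

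Genes named are the testis variants, the 2 most abundant members of each type, up to 6 called members in each direction with a mean of at least 1 CPM, and up to 3 genes per companion list with the smallest p; others named are said to be chosen after their values were seen or are named for their role. The members and lists were chosen with earlier results of these data known.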

Additional observations from a re-analysis of the deposited data

Results flagged for a closer look

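In 5 of 92 groups of 4 libraries examined, 1 library stood apart from the other 3 by more than Dixon's 95% critical value for 4 values; chance alone flags about 1 in 20 groups. Hist1h1a was at 1.39 CPM in wild-type library 4, against 0.467 to 0.612 CPM in the other 3 wild-type libraries, and this is the library that makes its groups overlap. Hist1h2aa was also highest in wild-type library 4, at 1.15 CPM, against 0.926 to 0.962 CPM in the other 3. Knockout library 1 was highest for Hist1h1e, at 0.322 CPM (0.175 to 0.189 CPM in the other 3), and for Hist2h3c2, at 1.61 CPM (0.931 to 1.04 CPM in the other 3). The summed H2B level was lowest in knockout library 2, at 92.8 CPM, against 102 to 104 CPM in the other 3 knockout libraries, and still above every wild-type library.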

How the results depend on the processing

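Hist1h3a, Hist1h4a, Hist1h2bp, Hist1h1c and Hist1h2bc kept direction and call in all 13 settings tried for single genes. Leaving out each library gave 5 to 6 called members, 3 to 4 higher and 2 to 2 lower. DESeq2 called 6 of 39 members (3 higher, 3 lower), beside 40.4% of all genes, and library totals 5 of 20, beside 55.1%. Without the filter edgeR called 8 of 39 (5 higher, 3 lower), adding Hist1h2al and Hist2h4, beside 29.0% of all genes. Among the 14 tested members with under 50% of their words shared, 2 were higher and 2 lower. With the replicate block 6 members were called (4 higher, 2 lower), as without it. The labels do not say that replicate numbers pair the libraries. Correlations of deviations were 0.08, 0.022, 0.061 and 0.002 for equal numbers, and not every library correlated best with its own number. Values this small in so few libraries cannot decide whether the numbers pair them.

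Hist1h1a lost its call with library totals (log2 fold change 0.65, adjusted p = 0.101), with DESeq2 (0.79, 0.0958) and without knockout library 1, 3 or 4 or wild-type library 1, 2 or 3 (0.60 to 0.84). With library totals Hist2h2be reversed to -0.0107 (adjusted p = 0.941). Among named members, leaving out 1 library turned the sign of 3 that were not called: Hist1h2ba ranged from -0.35 to 0.11, Hist1h4h from -0.30 to 0.0152 and Hist2h3c2 from -0.29 to 0.0185. Over all 13 settings the sign also turned in Hist2h2ac (-0.33 to 0.21), Hist1h4i (-0.30 to 0.07), Hist1h4c (-0.05 to 0.32) and Hist3h2bb-ps (-0.12 to 0.14), none of them called. The log2 ratios of sums moved with library totals to -0.67 (H1), 0.16 (H2B) and 0.22 (all members), and among members with little sharing to -0.10 (H2B), -0.95 (H3, where Hist1h3d alone is left) and 0.15 (all members). With library totals the histone mRNA list had 1 higher and 13 lower, and the spermatocyte list 1 higher; leaving out each library gave 2 to 4 higher in the histone mRNA list. The cause was not tested. Low counts limit most members: 19 of 39 could not be tested.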
